A study of Mus musculus with 5 samples.

Results

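miR-451, the abundant miRNA of red blood cells, and miR-150, a miRNA of mature lymphocytes, were followed through injury and repair of mouse muscle. They were taken by assay name and are 2 of the 217 miRNA assays measured beside 5 control RNAs. The muscle was the tibialis anterior of C57BL/6J males aged 4 to 6 months. It was either left uninjected (baseline) or injected with 100 µl of 2.5 µM cardiotoxin, a cobra venom toxin that destroys muscle fibres but spares their stem cells, and taken 1, 3, 4, 7 or 21 days later, from 4 mice per time point per the labels. The labels name 1 strain and no transgene or further treatment. The RNA is that of bulk muscle, with the blood and infiltrating cells it held. Whether blood was flushed from the muscles is not given in the sources used here. RNA was read by TaqMan RT-PCR as a threshold cycle (Ct), the PCR cycle at which product becomes visible. A lower Ct means more RNA, and 1 cycle was taken as 1 unit on the log2 scale.

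miR-451 is made with miR-144 from a common transcript that GATA1 switches on in erythroid cells. Its hairpin is too short for Dicer and is cut by Argonaute 2 instead, so that the mature strand runs around the loop. The mature miRNA persists in circulating red cells, which have lost their nucleus, and a muscle that holds blood therefore holds miR-451. miR-150 accumulates as B, T and natural killer cells mature, represses the transcription factor gene Myb, and is found in other leukocytes too. Both are commonly read as markers of blood cells in a tissue.

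The sequences show how miR-451 differs from the miRNAs it is set beside below. They are RefSeq entries of build GRCm38.p6 and are written 5′ to 3′, with the seed (bases 2 to 8, which pair with targets) in capitals in the mature miRNAs. The assays miR-16, miR-15a, miR-223, miR-142-3p and miR-126-3p were matched by name to miR-16-5p, miR-15a-5p, miR-223-3p, miR-142a-3p and miR-126a-3p.
miR-451a: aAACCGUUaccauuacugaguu
miR-16-5p: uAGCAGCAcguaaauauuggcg
miR-15a-5p: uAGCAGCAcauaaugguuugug
miR-223-3p: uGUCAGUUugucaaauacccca
miR-142a-3p: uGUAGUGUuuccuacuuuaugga
miR-126a-3p: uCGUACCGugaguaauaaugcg
The seed of miR-451a occurred in 1 mature name of the table, its own, whereas the seed shared by miR-16-5p and miR-15a-5p occurred in 10.

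The miR-451a hairpin is shown because its layout sets this miRNA apart. It lies at chr11:78073170-78073241 on the plus strand, and the capitals mark the mature miRNA.
Mir451a hairpin: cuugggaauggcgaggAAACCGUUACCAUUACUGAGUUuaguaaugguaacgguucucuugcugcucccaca
The mature strand takes bases 17 to 38 of the 72. The hairpin of Mir144 lies 99 bases upstream on the same strand, and miR-144 was not among the assays. The opposite strand of the same 72 bases carries Mir451b, whose mature miRNA has another seed.

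Each arm held 4 Ct values per assay. All comparisons with baseline share 1 set of 4 baseline values. The files do not name the mouse behind a value. The values were taken as the 4 mice. Where some are repeat wells of the same mouse, the spread behind the p-values is in part technical. The myofibre miRNAs were strong at baseline, as the tissue label has it, with mean Ct values of 12.9 for miR-1 and 9.35 for miR-133a. Changes are given on 2 scalings, because U6, the spliceosomal RNA that serves as endogenous control in the files, had a baseline Ct of 14.8 ± 0.26 (mean and SD, n = 4) and a day 1 Ct of 12.5 ± 0.79. The main scaling is relative to the median miRNA, that is the median change of 205 miRNAs with a Ct under 35 in every well. Against it, changes relative to U6 are lower by 1.91, 1.12, 0.67, 0.09 and 0.12 on days 1, 3, 4, 7 and 21. Both scalings join the values of different assays by their listed order, as if values at the same place came from the same RNA. That is not stated, and the levels of single values, standard errors and p-values rest on it. Over the 205 miRNAs, 1 leading component held 46.0% to 66.5% of the deviations from the arm mean, against 33.3% for equal components. Since 33.3% is the lowest share possible, these shares alone cannot show whether the listed order joins values of the same RNA. The words rose and fell are kept for limma adjusted p-values under 0.05 on both scalings, and the percentages of miRNAs called beside a result give the background for it.

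miR-451 gave its strongest signal at day 1 and its weakest at day 7. The 4 baseline Ct values of miR-451 were 21.53, 20.27, 19.18 and 20.08 (mean 20.3 ± 0.97, SD). At day 1 they were 18.12, 17.90, 18.88 and 18.31 (mean 18.3 ± 0.42). Every day 1 value was below every baseline value, so raw miR-451 signal was higher in all 4 injured muscles than in any uninjected one. At day 3 the values were 19.85, 19.81, 18.70 and 19.37 (mean 19.4 ± 0.53), and at day 4 they were 20.08, 20.16, 20.62 and 20.09 (mean 20.2 ± 0.26). Of these 8 values, 18.70 at day 3 was the only one outside the wide baseline range. At day 7 the values were 20.86, 22.13, 20.84 and 20.83 (mean 21.2 ± 0.64), and at day 21 they were 20.56, 20.95, 20.50 and 21.45 (mean 20.9 ± 0.44). The raw values of days 7 and 21 overlapped with baseline through a single high baseline Ct of 21.53.

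miR-150 moved over a narrower range and was lowest from day 4 to day 7. Its baseline Ct values were 16.36, 16.61, 16.34 and 16.49 (mean 16.5 ± 0.13, SD). At day 1 they were 16.01, 15.81, 15.11 and 15.67 (mean 15.7 ± 0.39), again all below the baseline values. At day 3 they were 17.55, 17.11, 16.46 and 17.11 (mean 17.1 ± 0.45), with a single value inside the baseline range. At day 4 the values were 17.38, 16.97, 17.98 and 17.07 (mean 17.4 ± 0.45), at day 7 they were 16.92, 17.59, 17.30 and 17.63 (mean 17.4 ± 0.33), and at day 21 they were 17.40, 17.20, 16.86 and 16.92 (mean 17.1 ± 0.25). On these last days every muscle gave a higher Ct, that is less miR-150, than any baseline muscle.

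**Figure D1:**
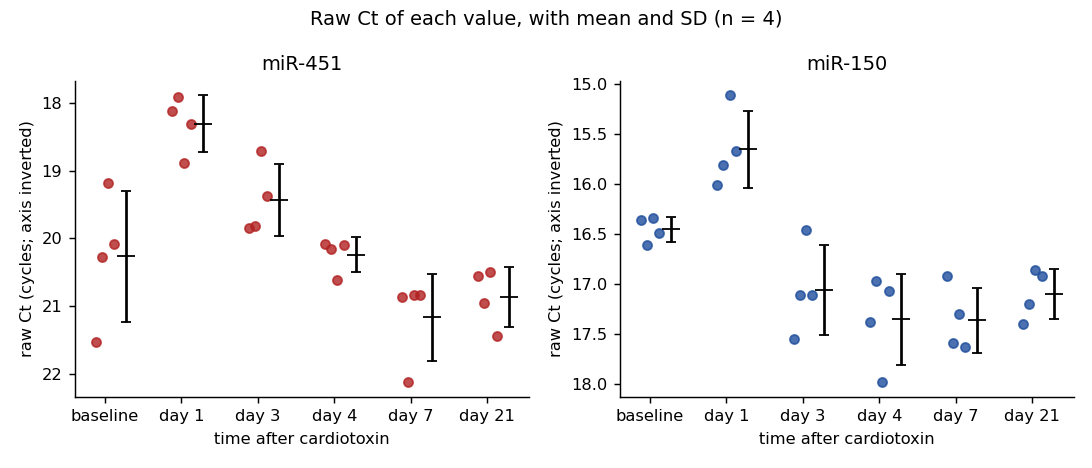
Raw Ct of miR-451 (left) and miR-150 (right) for each of the 4 values per arm, with the y axis inverted so that more RNA lies higher, and the mean and SD beside the points. Day 1 lies above baseline for both, and the baseline of miR-451 is spread from 19.18 to 21.53 while that of miR-150 runs from 16.34 to 16.61.

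The spread at baseline was a feature of miR-451. Its SD of 0.97 cycles ranked 12 from the widest among the 205 miRNAs measured in every well, whose median SD was 0.32, and the SD of miR-150 ranked 193. At day 7 miR-451 again ranked 9 from the widest, with an SD of 0.64 against a median of 0.24. At day 4 it ranked 94. The precision of every miR-451 comparison below is limited by these values. Standard errors of its change (0.35 on the log2 scale against baseline) were larger than those of miR-150 (0.21). They come from a variance pooled over all arms, so the baseline spread enters them only in part. Relative to the median miRNA, the SD of miR-451 was 0.83 at baseline and 0.15 at day 4. Such unequal spread was not modelled, and limma's standard errors and p-values of miR-451 against baseline may be too small.

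At day 1, the time of fibre breakdown and first infiltration, the direction of both miRNAs depended on the scaling. Relative to the median miRNA, miR-451 stood 2.99-fold over baseline (log2 1.58 ± 0.35, SE, 4 values per arm; limma adjusted p = 0.000354). Its day 1 levels on that scaling, 0.75 to 2.03, overlapped with those of baseline, -1.05 to 0.96, and an exact permutation test gave p = 0.0571. Relative to U6 it was at -0.33 ± 0.54 (adjusted p = 0.588). With 8 ways of scaling, 7 put miR-451 above baseline at day 1 and 6 of these passed the test, with log2 changes from -0.33 to 4.31. miR-150 was at 0.42 ± 0.21 relative to the median miRNA (adjusted p = 0.0701) and at -1.49 ± 0.39 relative to U6 (adjusted p = 0.000788), and across the 8 scalings it was called higher by 3 and lower by 2. Neither therefore counts as risen or fallen at day 1, where 47.9% of 211 tested miRNAs passed under both scalings. Relative to the median miRNA 41.2% were called higher and 38.9% lower, and relative to U6 9% and 65.9%.

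At day 3 miR-150 fell and miR-451 did not pass. miR-150 was 2.49-fold under baseline relative to the median miRNA (log2 -1.32 ± 0.21, limma adjusted p = 4.75e-06) and 5.42-fold under it relative to U6 (-2.44 ± 0.39, adjusted p = 1.53e-06). Of the 8 scalings, 7 called it lower, and relative to Y1, a small cytoplasmic RNA, it was at 0.005. miR-451 was at 0.12 ± 0.35 relative to the median miRNA, with a 95% interval from -0.61 to 0.86 (adjusted p = 0.764), and at -0.998 ± 0.54 relative to U6 (adjusted p = 0.0927). Of 212 miRNAs tested at this time, 41% were lower and 19.3% higher under both scalings.

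By day 4 both had fallen. miR-150 was 3.59-fold under baseline (log2 -1.84 ± 0.21, limma adjusted p = 3.25e-08; -2.52 ± 0.39 relative to U6), and all 8 scalings called it lower. miR-451 was 1.89-fold under baseline (-0.92 ± 0.35, adjusted p = 0.0215; -1.59 ± 0.54 relative to U6, adjusted p = 0.00985). The call of miR-451 was the less secure: 5 of the 8 scalings made it, raw Ct put it at 0.0275, and without the third baseline value it was at -0.61 (adjusted p = 0.105). Here 41.8% of 213 tested miRNAs were lower and 25.8% higher under both scalings.

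Day 7 held the lowest level of both relative to the median miRNA, and the values were close to each other. miR-451 had fallen 4.26-fold (log2 -2.09 ± 0.35, limma adjusted p = 1.24e-05) and miR-150 4.29-fold (-2.10 ± 0.21, adjusted p = 4.31e-09). Relative to U6 they were at -2.18 ± 0.54 (adjusted p = 0.000672) and -2.20 ± 0.39 (adjusted p = 9.00e-06). All 8 scalings called both lower, from -0.90 to -3.26 for miR-451 and from -0.91 to -3.28 for miR-150. Among 213 tested miRNAs 35.7% were lower under both scalings, and the changes of miR-451 and miR-150 ranked 182 and 183 from the highest. In bulk muscle, fewer cells of a type and less of the miRNA per cell cannot be told apart.

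At day 21 both were closer to baseline than at day 7. miR-150 was 1.73-fold under it relative to the median miRNA (log2 -0.79 ± 0.21, limma adjusted p = 0.00181) but did not pass relative to U6 (-0.91 ± 0.39, adjusted p = 0.0555). miR-451 was at -0.75 ± 0.35 (95% interval -1.49 to -0.01, adjusted p = 0.0623) and at -0.87 ± 0.54 relative to U6 (adjusted p = 0.190). A return to baseline is thus not shown for either, and a fall at day 21 did not pass under both scalings. At this time 41.3% of 213 miRNAs passed under both, and relative to the median miRNA 35.7% were called higher and 37.6% lower.

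**Figure D2:**
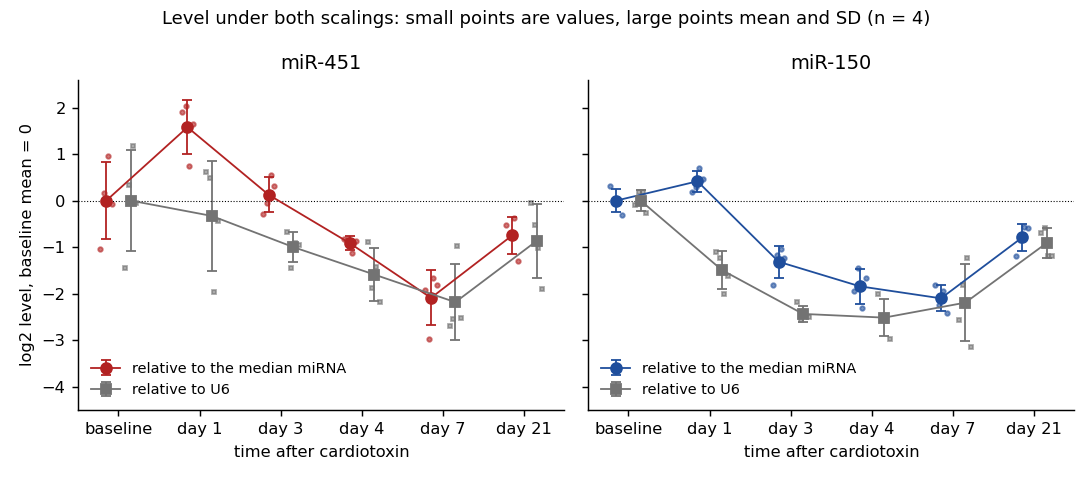
Log2 level of miR-451 (left) and miR-150 (right) in each arm with the baseline mean set to 0, relative to the median miRNA (coloured circles) and to U6 (grey squares); small points are single values and large points with bars are the mean and SD of 4. The scalings part at day 1, where miR-451 is at 1.58 and -0.33, and meet at day 7, where it is at -2.09 and -2.18.

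**Figure D3:**
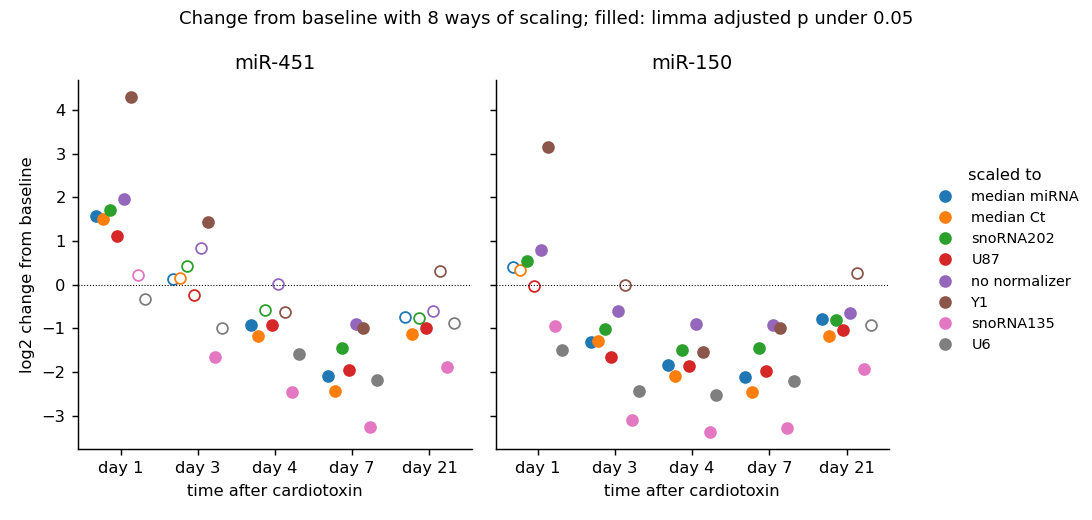
Log2 change from baseline of miR-451 (left) and miR-150 (right) at each time point with 8 ways of scaling; filled circles had a limma adjusted p under 0.05 and open circles did not. At day 7 all 8 circles of both miRNAs are filled and below 0, whereas at day 1 they run from -0.33 to 4.31 for miR-451 and from -1.49 to 3.15 for miR-150.

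Of the 4 successive steps of each miRNA, those that passed under both scalings were of miR-150, from day 7 to day 21 and from day 1 to day 3. From day 7 to day 21 miR-150 rose 2.48-fold (log2 1.31 ± 0.21, limma adjusted p = 1.29e-05; 1.28 ± 0.38 relative to U6, adjusted p = 0.0106), where 19.4% of 216 miRNAs were higher under both scalings and 38.4% relative to the median miRNA alone. In raw Ct that step was 0.265 and did not pass, and without the fourth day 7 value it was 0.96 relative to U6 (limma adjusted p = 0.0624). miR-451 was 2.54-fold higher over the same interval relative to the median miRNA (1.34 ± 0.36, adjusted p = 0.00209) and at 1.31 ± 0.54 relative to U6 (adjusted p = 0.0591). From day 1 to day 3 miR-150 fell by 1.73 ± 0.21 (adjusted p = 2.03e-07) and by 0.94 ± 0.38 relative to U6 (adjusted p = 0.0436), a call that 2 of 8 runs leaving out a value kept under both scalings. Over that interval 13.1% of 213 miRNAs were lower under both scalings and 48.4% relative to the median miRNA.

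The decline of miR-451 was spread over every interval from day 1 to day 7 relative to the median miRNA, though single steps did not pass relative to U6. Its steps were -1.45 ± 0.36 from day 1 to day 3, -1.04 ± 0.36 from day 3 to day 4 and -1.18 ± 0.36 from day 4 to day 7, with limma adjusted p of 0.000909, 0.0179 and 0.00935. The share of miRNAs called lower relative to the median miRNA was 28.2% from day 3 to day 4 and 25.8% from day 4 to day 7. Relative to U6 they were -0.67, -0.59 and -0.59, with adjusted p of 0.345, 0.588 and 0.487. The whole interval from day 1 to day 7 passed under both, at -3.67 ± 0.36 (12.7-fold, adjusted p = 3.38e-09) and at -1.85 ± 0.54 relative to U6 (adjusted p = 0.0034), where 9.35% of 214 miRNAs were lower under both and 52.8% relative to the median miRNA. For miR-150 that interval was -2.52 ± 0.21 (adjusted p = 2.20e-10), and -0.70 ± 0.38 relative to U6 (adjusted p = 0.111).

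Ordered by level relative to the median miRNA, miR-451 ran from day 1 through day 3, baseline, day 21 and day 4 to day 7. Only the steps at both ends of this order passed limma's test, that between days 1 and 3 and that between days 4 and 7. The neighbours day 3 and baseline, baseline and day 21 (adjusted p = 0.0623), and day 21 and day 4 (0.17 ± 0.36, adjusted p = 0.668) did not differ beyond their spread. For miR-150 the order was day 1, baseline, day 21, day 3, day 4 and day 7. Its neighbours day 1 and baseline, and days 4 and 7 (-0.26 ± 0.21, adjusted p = 0.311) did not pass, whereas day 21 lay 0.52 ± 0.21 over day 3 (adjusted p = 0.0250, with 47.4% of 215 miRNAs called higher) and day 4 lay 0.53 under day 3 (adjusted p = 0.0354). The order relative to U6 was another one, running for miR-451 from baseline through days 1, 21, 3 and 4 to day 7, and for miR-150 from baseline through days 21, 1, 7 and 3 to day 4. Within these orders no neighbours passed limma's test.

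The ratio of miR-451 to miR-150 needs no normalizer. It was taken value by value, in the order in which the files list the 4 values of each assay, as if values at the same place came from the same RNA, which the files do not state. The mean shift of the ratio does not depend on that pairing, whereas its spread and p-value do. With the baseline mean set to 0, the baseline log2 ratios were -1.355, 0.155, 0.975 and 0.225. At day 3 they were 1.515, 1.115, 1.575 and 1.555, all above the baseline values. The shift at day 3 was 1.44 (2.71-fold), with p = 0.0286 in the two-sided exact permutation test, the smallest that 4 against 4 values allow, and 0.129 after adjustment over 9 comparisons. By the same exact test the shift was 1.16 at day 1 (adjusted p = 0.206) and 0.93 at day 4 (adjusted p = 0.193), where 3 and 1 baseline values reached into the range of the injured muscles.

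No shift of the ratio passed this test after adjustment. A limma fit of the same ratio, which borrows its error from all assays and all arms, gave a 95% interval of 0.30 to 2.03 at day 1 (adjusted p = 0.0146), 0.58 to 2.30 at day 3 (adjusted p = 0.00323) and 0.06 to 1.79 at day 4 (adjusted p = 0.0437). At day 7 the ratio was back at 0.01, with an interval from -0.85 to 0.87, and at day 21 at 0.05, with an interval from -0.82 to 0.91. The difference between days 4 and 7 was -0.92 with no overlap between the arms (exact permutation p = 0.0286, adjusted p = 0.129; limma adjusted p = 0.0768). Much rested on the lowest baseline value, the first: without it the shift was 0.71 at day 1, 0.99 at day 3 and 0.48 at day 4.

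**Figure D4:**
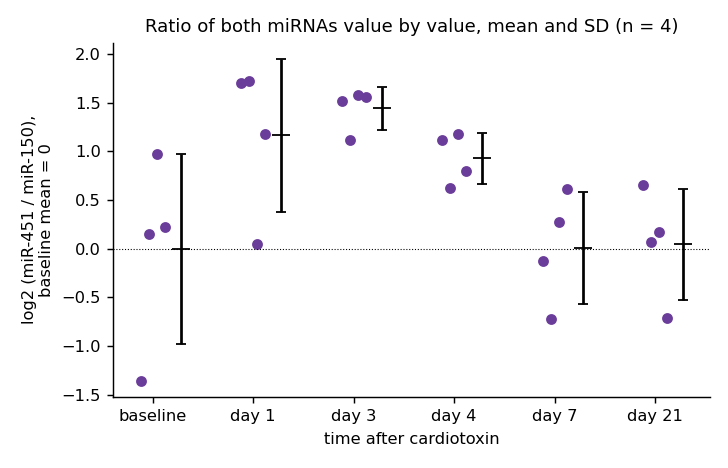
Log2 ratio of miR-451 to miR-150 in each of the 4 values per arm, with the baseline mean set to 0 and the mean and SD beside the points. The day 3 values, 1.115 to 1.575, lie above all baseline values, which reach from -1.355 to 0.975, and days 7 and 21 scatter around 0.

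Against miR-223 and miR-142-3p, the ratios of both were far below baseline from day 1 to day 7. Over 35 value-by-value comparisons with miR-223, miR-142-3p, miR-126-3p and miR-16, the smallest adjusted p that occurred in the exact permutation test was 0.0435. miR-223 is the miRNA of neutrophils and other myeloid cells. At day 1 the ratio to miR-223 was 30.9-fold under baseline for miR-451 and 69.1-fold for miR-150. The arms did not overlap (exact permutation adjusted p = 0.0435 for both). Relative to the median miRNA, miR-223 itself was at 6.53 ± 0.12 that day, miR-451 at 1.58 and miR-150 at 0.42. The gap to miR-223 narrowed to 12.3-fold and 33.2-fold at day 3, 8.35-fold and 15.9-fold at day 4 and 7.19-fold and 7.24-fold at day 7. At day 21 it was 1.68-fold for miR-451, where the arms overlapped (exact permutation adjusted p = 0.296), and 1.73-fold for miR-150, where they did not (adjusted p = 0.0435).

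Against miR-142-3p, made in all haematopoietic lineages, the gap did not close in the same way. For miR-451 it was 10.4-fold at day 1, 15.0-fold at day 3, 17.3-fold at day 4, 19.4-fold at day 7 and 3.17-fold at day 21. For miR-150 it was 23.3-fold, 40.7-fold, 32.8-fold, 19.5-fold and 3.27-fold on the same days. All 10 shifts had arms that did not overlap, with exact permutation adjusted p = 0.0435.

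Against the endothelial miR-126-3p, both were relatively high in mid-course. miR-451 gained 4.52-fold on it at day 3 and 3.33-fold at day 4, and miR-150 gained 1.67-fold and 1.75-fold, all with exact permutation adjusted p = 0.0435. At day 7 the shifts were 0.15 and 0.14 on the log2 scale, and at day 21 they were -0.14 and -0.18, with overlapping arms. miR-126-3p itself stood at 0.16 ± 0.13 at day 1 and fell to -2.05 ± 0.13 at day 3, -2.65 ± 0.13 at day 4 and -2.24 ± 0.13 at day 7. At day 7 the ratios of miR-451, miR-150 and miR-126-3p to each other overlapped with those of baseline muscle.

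**Figure D5:**
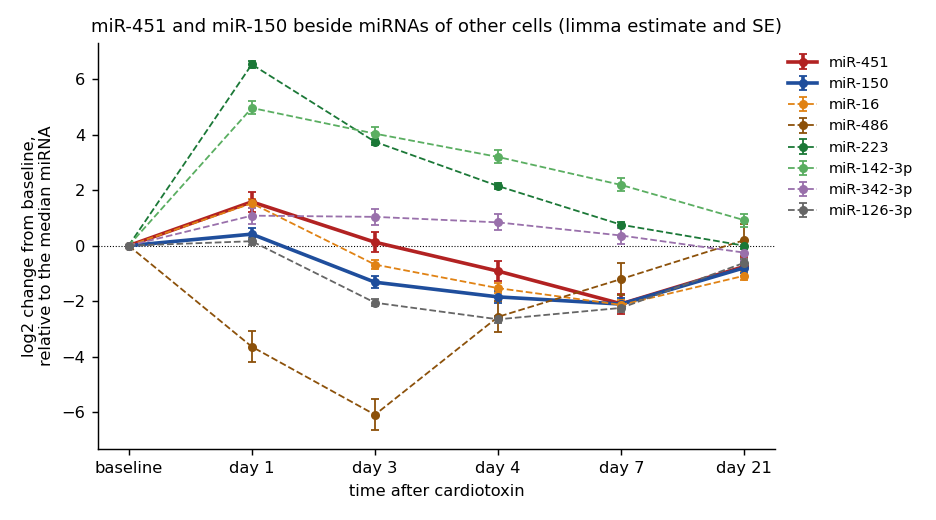
Log2 change from baseline relative to the median miRNA, with limma's SE, for miR-451 and miR-150 (thick lines) and for miR-16, miR-486, miR-223, miR-142-3p, miR-342-3p and miR-126-3p (dashed). miR-223 reaches 6.53 and miR-142-3p 4.96 at day 1, far over miR-451 at 1.58, and at day 7 miR-451, miR-150, miR-16 and miR-126-3p lie between -2.24 and -2.09.

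Other miRNAs abundant in red cells did not form a single course. Beside miR-451, 6 of the red cell list were measured. Relative to the median miRNA 5 of these were higher and 1 lower at day 1, with a median of 1.11 against -0.04 over all tested miRNAs. Of all tested miRNAs, 41.2% were called higher and 38.9% lower. Relative to U6, 2 of the 6 were lower at that time and none was called higher, against 65.9% and 9% of all tested miRNAs. miR-16, which red cells and most other cells hold, was near miR-451 at day 1 (1.53 ± 0.17) and day 7 (-2.13 ± 0.17). The value-by-value ratio of miR-451 to miR-16 shifted by 0.05 and 0.04 there, and by 0.61 and 0.33 at days 4 and 21. The baseline SD of this ratio was 1.05, and every day overlapped with baseline. At day 3 miR-16 had fallen by 0.68 ± 0.17 while miR-451 was at 0.12, but that shift of the ratio, 0.81, did not pass (exact permutation adjusted p = 0.296).

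miR-486, abundant in red cells and in myofibres alike, went the other way early on. It had fallen to -3.64 ± 0.56 at day 1 and lower still at day 3 (67.9-fold), when miR-451 was at 1.58 and 0.12. At day 7 miR-486 was at -1.20 ± 0.56 (limma adjusted p = 0.0540). Of the 6 red cell miRNAs measured beside miR-451, miR-486 among them, 3 were lower under both scalings at day 7, against 35.7% of all tested miRNAs. miR-15b was the list's exception in the other direction, higher under both scalings at days 3 and 4 (2.43 ± 0.15 and 1.91 ± 0.15). At day 7 miR-25 was at -0.33 ± 0.17 and miR-92a, of the miR-17-92 cluster, had fallen 2-fold. What part red cells had in these levels was not tested.

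Beside miR-150, 4 of the lymphocyte list were measured, and they differed among themselves. At day 4 relative to the median miRNA 2 of the 4 were lower and 1 higher, with a median of -0.34 against 0.06 over all tested miRNAs, of which 41.8% were called lower and 43.2% higher. miR-155, which lymphocytes and macrophages make on activation, fell at days 3, 4 and 7 as miR-150 did (-1.37, -1.41 and -1.21, each ± 0.15). miR-181a, abundant in thymocytes, fell at day 4 (-0.999 ± 0.28). miR-342-3p, a lymphocyte miRNA, was at 0.84 ± 0.29 (adjusted p = 0.0106) and at 0.16 relative to U6 (limma adjusted p = 0.724). miR-146a, a feedback brake on NF-kB signalling, was at 2.26 ± 0.19 at day 1 and 0.33 ± 0.19 at day 4, and relative to U6 it passed on none of the 5 days. At day 21 relative to the median miRNA 2 of the 4 were higher and 1 lower, against 35.7% and 37.6% of all tested miRNAs. Relative to U6 none of the 4 passed, where 88 of 213 tested miRNAs did.

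The lists for other cells went their own ways beside both miRNAs. Both haematopoietic miRNAs measured, miR-142-3p and miR-142-5p from the same hairpin, rose at days 1, 3 and 4. Of all tested miRNAs, 9%, 19.3% and 25.8% were higher under both scalings at days 1, 3 and 4. miR-142-5p stood at 5.12 ± 0.15 at day 1 and 2.11 ± 0.15 at day 7. Both endothelial miRNAs fell at days 3, 4 and 7, when 41%, 41.8% and 35.7% of all tested miRNAs were lower under both scalings. Of the 4 myeloid miRNAs that could be tested at day 4, 2 were higher and 2 lower under both scalings, against 25.8% and 41.8% of all tested miRNAs. All 5 myofibre miRNAs measured, miR-486 among them, fell at days 1 and 4, when 38.9% and 41.8% of all tested miRNAs were lower under both scalings. At day 21, 4 of the 5 were still lower under both scalings, when 41.3% of all tested miRNAs passed under both in either direction. What part a change in these cells had in the levels of miR-451 and miR-150 was not tested.

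By shape of their course over the 6 arm means relative to the median miRNA, the miRNAs most like miR-451 were miR-15a (Pearson r = 0.98), miR-146b (0.97), miR-16 (0.97), miR-338-3p (0.96) and miR-135a (0.95), out of 204. miR-15a and miR-16 share the seed printed above. Their sizes differed, since miR-135a ran from 2.69 at day 1 to -3.91 at day 7 and miR-15a from 1.06 to -0.96. For miR-150 the most alike were miR-384-5p (0.99), miR-320 (0.99), miR-10a (0.98), miR-191 (0.96) and miR-192 (0.96). The least alike were miR-495 for miR-451 (-0.99) and miR-370 for miR-150 (-0.99), both of the imprinted Dlk1-Dio3 region. miR-451 and miR-150 correlated at 0.85 with each other. These coefficients describe 6 points that share 1 set of RNAs and 1 scaling.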

How the data were processed

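The authors deposited raw threshold cycles (Ct; unit: other, cycles), with no normalization, in a time point column and a baseline column. Per the labels' protocols, RNA with an integrity number above 9 was measured with TaqMan assays over 40 cycles on a 7900HT instrument. How the Ct threshold was set is not given in the sources used here. The 5 files list 222 assays with 4 values per arm and hold identical baseline values, which were used once.

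The members and lists were chosen with earlier results of these data known, as was the main scaling. Levels were minus Ct relative to the median miRNA or to U6. All 6 arms entered a limma 3.58.1 fit (lmFit and eBayes, R 4.3.3) over all miRNAs, each tested where 3 or more of the 4 wells in both arms stayed below Ct 35, without wells at 40. P-values are two-sided, adjusted by Benjamini-Hochberg over all miRNAs tested, with a threshold of 0.05. Errors of changes are standard errors. Value-by-value ratios were tested by exact permutation. The fit was checked on simulated data. Named miRNAs were both members, the listed blood, vessel and fibre miRNAs where measured, the 5 most like each member, and miR-15b, miR-25, miR-92a and the least alike, named after their values were seen. Alternatives covered the normalizer, the Ct limit, the arms in the fit, the variance model, the test and each value left out. Depth has no counterpart here, and 4 values per arm limit the precision.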

Additional observations from a re-analysis of the deposited data

Results flagged for a closer look

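In 4 of 42 sets of 4 values examined, a single value stood apart from the rest by Dixon's criterion, which chance meets in about 1 of 20 independent sets. The 42 sets are not independent, since the same Ct values enter as Ct, as levels on both scalings and in the ratio. The day 7 Ct of miR-451 held a value of 22.13 beside 20.83 to 20.86, and the day 4 Ct held 20.62 beside 20.08 to 20.16. Relative to U6, the day 7 level of miR-451 held -0.97 beside -2.69 to -2.53. This -0.97 belonged to the value with a Ct of 20.84, not to that of 22.13. The day 3 ratio of miR-451 to miR-150 held 1.115 beside 1.515 to 1.575.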

How the results depend on the processing

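Under each of the 12 alternatives to the main fit, and in all 8 runs that left out a value, miR-150 stayed below baseline and past the threshold at days 4 and 7, as did miR-451 at day 7. For the exact permutation test among these alternatives, p was not adjusted over miRNAs and cannot go below 0.0286. The other results moved as follows, in log2 changes. Relative to U6, miR-451 was at -0.33 at day 1, -0.9975 at day 3, -0.6675 from day 1 to 3, -0.5925 from day 3 to 4, -0.595 from day 4 to 7 and 1.315 from day 7 to 21. miR-150 was then at -1.4925 at day 1, -0.915 at day 21, -0.08 from day 3 to 4 and 0.3225 from day 4 to 7, and 88 miRNAs were called at day 21 in place of 156. Relative to snoRNA135, miR-451 was at 0.225, -1.65 and -1.8875 at days 1, 3 and 21, -0.795 from day 3 to 4 and -0.82 from day 4 to 7, and miR-150 at -0.9375 at day 1, -0.2825 from day 3 to 4 and 0.0975 from day 4 to 7. Relative to snoRNA202, miR-451 was at -0.5775 at day 4 and 0.6775 from day 7 to 21, and miR-150 at 0.555 at day 1, -0.4875 from day 3 to 4 and 0.055 from day 4 to 7. Relative to U87, miR-451 was at -0.225 and -0.99 at days 3 and 21, -0.7 from day 3 to 4, -1.0325 from day 4 to 7 and 0.9675 from day 7 to 21, and miR-150 at -0.0375 at day 1 and -0.1875 from day 3 to 4. Relative to Y1, miR-451 was at 1.445, -0.62 and 0.3225 at days 3, 4 and 21 and -0.37 from day 4 to 7, and miR-150 at 3.15, 0.005 and 0.2775 at days 1, 3 and 21 and 0.5475 from day 4 to 7. Relative to the median Ct of all miRNAs, miR-451 was at -1.1237 at day 21. In raw Ct, miR-451 was at 0.0275 at day 4, -0.805 from day 3 to 4, -0.9275 from day 4 to 7 and 0.3 from day 7 to 21, and miR-150 at 0.8 at day 1, -0.2925 from day 3 to 4 and 0.265 from day 7 to 21.

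With only the 2 arms compared in the fit, miR-150 was at -0.5288 from day 3 to 4 and no longer passed. The changes of miR-451 at day 1 (1.5781) and day 4 (-0.9162) and of miR-150 from day 3 to 4 (-0.5287) missed 0.05 in an exact permutation test. The limma fit of the ratio of miR-451 to miR-150 passed at days 1, 3 and 4 (1.1625, 1.44 and 0.9275), where the exact test did not after adjustment.

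Leaving out each value in turn, miR-451 ranged from -0.1861 to 0.4433 at day 3, from -1.2453 to -0.6117 at day 4, from -1.1011 to -0.4158 at day 21 and from -1.1821 to -0.9029 from day 3 to 4. miR-150 ranged from 0.3056 to 0.4989 at day 1 and from -0.6946 to -0.3854 from day 3 to 4. The ratio of both ranged from 0.7108 to 1.535 at day 1, from 0.9883 to 1.765 at day 3, from 0.4758 to 1.2525 at day 4, from -0.4417 to 0.335 at day 7, from -0.4067 to 0.37 at day 21, from -0.095 to 0.465 between days 1 and 3 and from -0.21 to 0.2883 between days 7 and 21. Without the first baseline value miR-451 at day 21 was at -1.10 with a limma adjusted p = 0.00562. No paired analysis was possible because the labels give the groups no shared replicate numbers. The causes of these differences were not tested. With 4 values per arm, an exact test cannot go below p = 0.0286. The baseline SD of miR-451, 0.97 between single values, limits the precision of its changes. Their SE against baseline was 0.35 relative to the median miRNA. It comes from a variance pooled over all arms, so it carries the baseline spread only in part and may be too small.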
